A study of Mus musculus with 4 samples.

Results

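Transcripts of the LIM-only (LMO) family and of the LIM domain-binding (LDB) cofactors were read in 4 primary mouse neuroblastomas. The members were 6 genes, Lmo1, Lmo2, Lmo3, Lmo4, Ldb1 and Ldb2, out of 22180 genes that the array annotation names singly. They were chosen as a gene family by name, and each was read by 1 probe set, so no choice between probe sets was needed. Every tumour came from the same genotype, an Alk mutant with the TH-MYCN transgene that lacks Stat6 (Stat6-/-), bred on C57BL/6 crossed with 129Sv/J, and the 4 form 1 group with no control. TH-MYCN mice express human MYCN from the tyrosine hydroxylase promoter in sympathetic cells and develop neuroblastoma. Age, treatment and the Alk allele are not given in the labels used here, nor is it stated that the tumours came from separate animals. The study asks how Stat6-dependent macrophage polarization bears on tumour growth; these data describe Stat6-null tumours alone, so nothing below is a comparison of genotypes.

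LMO proteins consist of little more than tandem LIM domains, zinc-binding modules that bind other proteins and not DNA. Ldb1 grips LIM domains through its carboxy-terminal part and pairs with itself through its amino-terminal part, so that an LMO protein with Ldb1 bridges DNA-binding factors such as GATA factors, basic helix-loop-helix (bHLH) factors and LIM-homeodomain factors. SSBP proteins shield Ldb1 from degradation, and the ubiquitin ligase Rlim marks Ldb1 and its partners for it. LMO1 is a known susceptibility gene and oncogene of human neuroblastoma, LMO3 acts with the bHLH factor NHLH2 (HEN2) in that tumour, LMO2 serves blood and endothelial development and is an oncogene of T cell leukaemia, and LMO4 is a broadly expressed partner of DEAF1, RBBP8 and BRCA1.

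Values are the authors' normalized log2 units, in which a difference of 1 is a 2-fold difference, and levels of different genes depend on their probes and are not ranked. A gene counted as above the floor, or detected, when its 4-tumour mean exceeded 6.17, the 95th percentile of the means of 1394 odorant and pheromone (vomeronasal) receptor genes, taken as unexpressed in this tissue. Below the floor, low expression and none look alike. With 1 array per tumour, a difference between tumours has no error of its own and no test was possible. In bulk tissue, fewer cells of a type and less RNA per cell cannot be told apart. The labels name a neck muscle as the tissue: 0 of 6 skeletal muscle markers were detected, and all 7 measured markers of sympathetic tumour cells were. The arrays were not perfectly level: the median deviation of detected genes from their own means was 0.12, 0.04, -0.09 and -0.08 in tumours 1 to 4, an offset of about the size of Ldb1's whole range. Tumour 4 was the only array with a high Xist value (10.13 against 3.89 to 3.95) and a low value of the Y-linked gene Eif2s3y (3.90 against 7.47 to 7.89), so differences of tumour 4 and of sex cannot be told apart.

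The regulatory sequence next to these genes is shown first, because LMO and LDB proteins are brought to DNA by factors that read GATA sites, E-boxes and homeodomain sites. RefSeq windows of GRCm38.p6 were held for Lmo1, Lmo3, Lmo4 and Ldb1 (4 of 6 members), and the 250 bases before the most upstream annotated start are printed for 3 of them. Lmo1 and Lmo3 are the members whose window there held a searched motif, and Lmo4 is shown beside Lmo3 because these genes differed most in their pattern over tumours. All lie on the minus strand and are written 5′ to 3′ towards the start. Lmo1 is at chr7:109175208-109175457, Lmo3 at chr6:138581969-138582218 and Lmo4 at chr3:144205256-144205505. Capitals mark the motifs found on either strand.
Lmo1: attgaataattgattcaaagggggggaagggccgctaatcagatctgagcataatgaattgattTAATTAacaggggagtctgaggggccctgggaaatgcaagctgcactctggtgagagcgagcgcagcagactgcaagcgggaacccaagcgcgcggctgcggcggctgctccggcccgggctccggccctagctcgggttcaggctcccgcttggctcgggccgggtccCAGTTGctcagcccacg
Lmo3: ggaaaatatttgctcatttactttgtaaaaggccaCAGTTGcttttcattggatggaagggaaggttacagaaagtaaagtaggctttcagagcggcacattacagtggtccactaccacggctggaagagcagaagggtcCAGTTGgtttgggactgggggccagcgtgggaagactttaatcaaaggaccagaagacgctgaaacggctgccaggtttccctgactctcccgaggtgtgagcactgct
Lmo4: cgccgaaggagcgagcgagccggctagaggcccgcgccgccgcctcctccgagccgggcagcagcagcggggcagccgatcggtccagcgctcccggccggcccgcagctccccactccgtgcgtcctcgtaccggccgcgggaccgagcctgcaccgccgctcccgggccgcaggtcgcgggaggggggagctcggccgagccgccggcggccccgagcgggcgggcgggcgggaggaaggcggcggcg

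The motifs searched on both strands were CACGTG, the E-box that MYC binds with MAX, CAGNTG, the E-box of E proteins with TAL-type partners, GATAA, the core of a GATA site, and TAATTA, a homeodomain core. No bases of these windows were counted for more than 1 of the motifs. Lmo3 held CAGNTG at 2 places, beginning 109 and 215 bases before the start. Lmo1 held CAGNTG once, 17 bases before the start, and TAATTA once, 186 bases before it. In all 32851 windows of that length, CAGNTG was present in 44.8%, TAATTA in 4.84%, GATAA in 22.6% and CACGTG in 6.02%, so the Lmo3 motif is common. The 3 Lmo4 windows and the most upstream Ldb1 window held none of the motifs. Of the other Ldb1 windows, that of the start farthest downstream held GATAA at 2 places, 200 and 240 bases before that start, and CAGNTG once, 247 bases before it, and these were the only GATAA matches among the members. CACGTG was in none of the 9 windows of the 4 genes. Composition differed more plainly: the Lmo3 window was 50.0% G and C with 6 CpG dinucleotides, Lmo1 61.2% with 17, Ldb1 76.0% with 40 and Lmo4 82.4% with 44, where the median window had 52.4%. A match describes letters and is not a shown binding site.

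Of the 6 members, 5 were detected, where 40.5% of all named genes were. The exception was Lmo2. The 5 also passed a stricter floor of 7.14, the 99th percentile of the receptor genes. The share of all named genes above that stricter floor was not counted. Over the 4 tumours, 1 of the 5, Lmo3, had a range of at least 1 log2 unit, where 4.26% of detected genes did. Without tumour 2 or without tumour 3 that count was 0. The median range of the 5 was 0.61, against 0.41 for all detected genes.

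**Figure D1:**
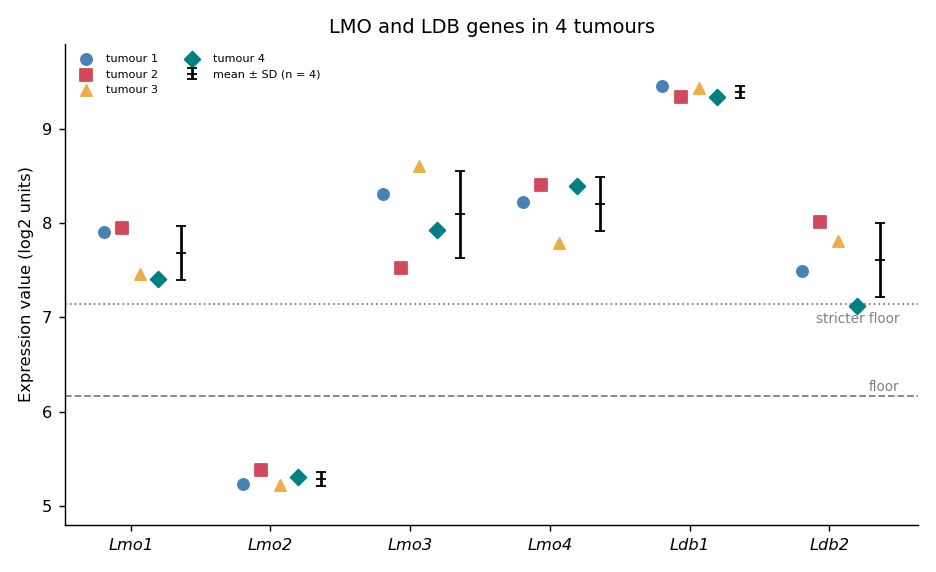
Expression value in log2 units (y axis) of each LMO and LDB gene (x axis) in tumours 1 to 4, with the mean and SD of the 4 beside the points; dashed and dotted lines are the floor (6.17) and the stricter floor (7.14). Lmo2 lies under the floor in all 4 tumours, Ldb1 is nearly level, and Lmo3 and Lmo4 take opposite extremes in tumour 3; heights of different genes are not comparable.

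Lmo1, the neuroblastoma family member, measured 7.91 in tumour 1, 7.95 in tumour 2, 7.46 in tumour 3 and 7.41 in tumour 4. The tumours thus fell into a higher pair, 1 and 2, and a lower pair, 3 and 4, with the gap between pairs larger than that within either. The mean was 7.68 ± 0.29 (SD, n = 4) and the range 0.54 log2 units, or 1.45-fold. The direction of the split matches that of the array offsets, and with each array centred on its detected genes the order of the tumours stayed the same while the range was 0.41. As deposited, the range of 0.54 is at percentile 69.7 of detected genes. That percentile includes the array offsets, and a percentile of the centred range was not computed.

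Lmo3, the family member that partners NHLH2, measured 8.31 in tumour 1, 7.53 in tumour 2, 8.60 in tumour 3 and 7.93 in tumour 4. It was highest in tumour 3 and lowest in tumour 2, with a range of 1.07 log2 units, a 2.10-fold difference. The mean was 8.09 ± 0.47 (SD, n = 4). Among detected genes this range stood at percentile 96.6, and among the 2459 genes within 0.5 log2 units of its mean at percentile 96.9. Tumours 2 and 3 differed at least 2-fold in 117 of 8989 detected genes, and Lmo3 was one of them. Centring the arrays kept the order of the tumours and widened the range to 1.20. The range was 0.67 without tumour 2 and 0.78 without tumour 3.

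Lmo4, the broadly expressed member, measured 8.22 in tumour 1, 8.41 in tumour 2, 7.79 in tumour 3 and 8.39 in tumour 4. As deposited, tumour 3 was the low one and the others lay close together, within 0.19 of each other. Its mean was 8.20 ± 0.29 (SD, n = 4) and its range 0.61, at percentile 79.1 of detected genes. The gap of tumour 3 to the nearest tumour took 0.69 of the range, under the 95% limit of Dixon's ratio for an outlier among 4 values. Tumours 2 and 4, which differed by 0.01, changed places when the arrays were centred. The deviations were then -0.11, 0.16, -0.32 and 0.27 in tumours 1 to 4. Tumour 3 stayed lowest, but tumour 1 lay nearer to it than to tumours 2 and 4. The close grouping of the other tumours thus depends on the scaling. Macrophage markers, of which 8 of 10 were detected, also had their lowest mean level in tumour 3, at 7.04 against 7.57 to 7.67 in the others, and their part in the Lmo4 value was not tested.

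Lmo2, the blood and endothelial member, measured 5.24, 5.38, 5.23 and 5.31 in tumours 1 to 4, under the floor in every tumour. Its mean of 5.29 ± 0.07 (SD, n = 4) was exceeded by the means of 213 of the 1394 receptor genes, so signal and background cannot be told apart. Its known bHLH partners of blood cells lay in the same zone, with Tal1 at 5.40 ± 0.12 and Lyl1 at 4.72 ± 0.21 (SD, n = 4), as did Gata1 at 4.64 ± 0.11; these genes were named with their values known. Of the markers of cells known for Lmo2, 0 of 4 measured erythroid and megakaryocyte genes were detected and 2 of 12 endothelial genes, Cdh5 and Egfl7.

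Ldb1, the bridge to which every LMO protein binds, measured 9.46 in tumour 1, 9.34 in tumour 2, 9.44 in tumour 3 and 9.34 in tumour 4. These values span 0.12 log2 units, or 1.09-fold, around a mean of 9.39 ± 0.06 (SD, n = 4). Only 3.20% of detected genes had a narrower range. The order of so steady a gene depends on the scaling: as deposited, tumours 1 and 3 were the higher ones, and with centred arrays tumours 3 and 4, with a range of 0.23.

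Ldb2, the relative of Ldb1 that is also known from endothelium, measured 7.50 in tumour 1, 8.02 in tumour 2, 7.81 in tumour 3 and 7.12 in tumour 4. Tumour 2 was highest and tumour 4 lowest, a range of 0.90 log2 units or 1.86-fold, around a mean of 7.61 ± 0.39 (SD, n = 4). This range was at percentile 93.9 of detected genes, and the order of the tumours was the same with centred arrays, where the range was 0.77. Without tumour 4 the range as deposited was 0.52, and without tumour 2 it was 0.69. In tumour 4 the value lay just under the stricter floor of 7.14. The mean level of the 12 endothelial markers ran from 5.24 in tumour 4 to 5.34 in tumour 3, and none of them passed the stricter floor. Only 2 of the 12 were detected, so that mean rests mostly on values under the floor. It cannot show whether endothelial content was steady. With centred arrays the 2 detected markers had mean deviations of -0.15, -0.09, 0.23 and 0.01 in tumours 1 to 4. Cdh5, the cadherin of endothelial junctions, was at 6.45, 6.51, 6.61 and 6.32 in tumours 1 to 4, and like Ldb2 lowest in tumour 4, while Egfl7, a secreted endothelial factor, was lowest in tumour 2. These marker orders depend on the scaling. With centred arrays Cdh5 was lowest in tumour 1, with a deviation of -0.14 against -0.07 in tumour 4. Egfl7 was then at -0.16 in both tumour 1 and tumour 2. The part of endothelial RNA in the Ldb2 values was not tested.

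**Figure D2:**
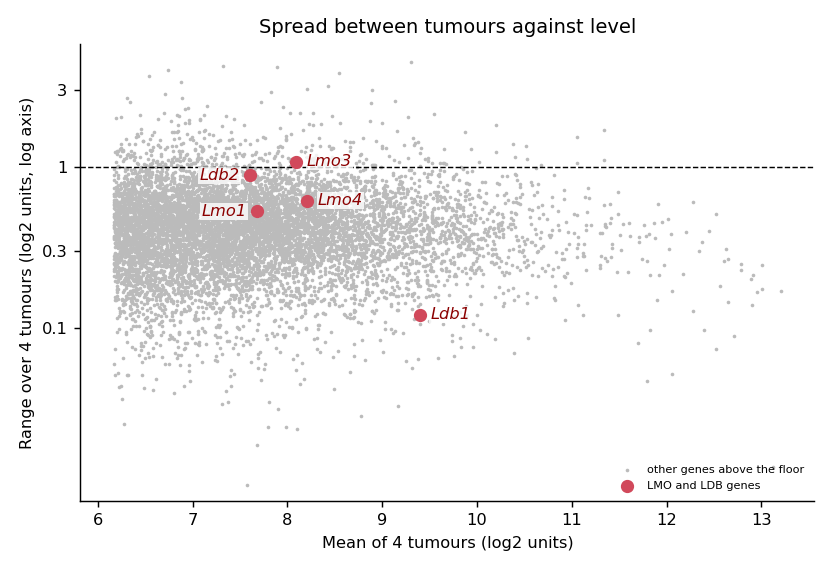
Range over the 4 tumours in log2 units (y axis, log scale) against the 4-tumour mean in log2 units (x axis) for genes above the floor (grey points), with the 5 detected LMO and LDB genes in red; the dashed line is a 2-fold range. Lmo3 (1.07) lies just above the line, Ldb2 (0.90) just below it, and Ldb1 (0.12) near the lower edge.

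An offset shared by all genes of an array cancels when genes are compared on the same array. The deviation of each gene from its own mean was therefore set against that of the others. The offsets here differed with level: the median of receptor genes was 3.85 in tumour 1 and 4.10 in tumour 4, while detected genes were lower in tumour 4. Such an offset need not cancel fully between genes of different level. Of the 10 pairs of detected members, Lmo3 and Lmo4 parted most. The deviation of Lmo3 minus that of Lmo4 was 0.20 in tumour 1, -0.77 in tumour 2, 0.92 in tumour 3 and -0.35 in tumour 4. The balance of these family members therefore changed by 1.69 log2 units, or 3.22-fold, between tumours 2 and 3. It was 1.27 without tumour 2 and 0.97 without tumour 3, a reduction of over 1.5 times in the latter case. Lmo1 against Lmo3 came next, with a range of 1.57 and the same extreme tumours, and 0.75 without tumour 2 or 0.94 without tumour 3.

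Lmo1 minus Lmo4 had a range of 0.67, which rested on tumour 4, the lowest at -0.46, and was 0.15 without it. Lmo3 minus Ldb2 was -0.97 in tumour 2 and 0.31 to 0.33 in the others, so that the range of that difference was 0.018 without tumour 2. Ldb2 against Lmo4 spanned 1.29, from tumour 3 to tumour 4, and 0.74 without tumour 4. Ldb2 against its relative Ldb1 spanned 0.90, from tumour 2 to tumour 4, and 0.59 without tumour 2. Since Ldb1 hardly moved, the differences to Ldb1 largely repeat each other gene's own deviations: 0.97 for Lmo3 (0.57 without tumour 2), 0.72 for Lmo4 (0.31 without tumour 3) and 0.59 for Lmo1. The pairs share genes and are not independent of each other.

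**Figure D3:**
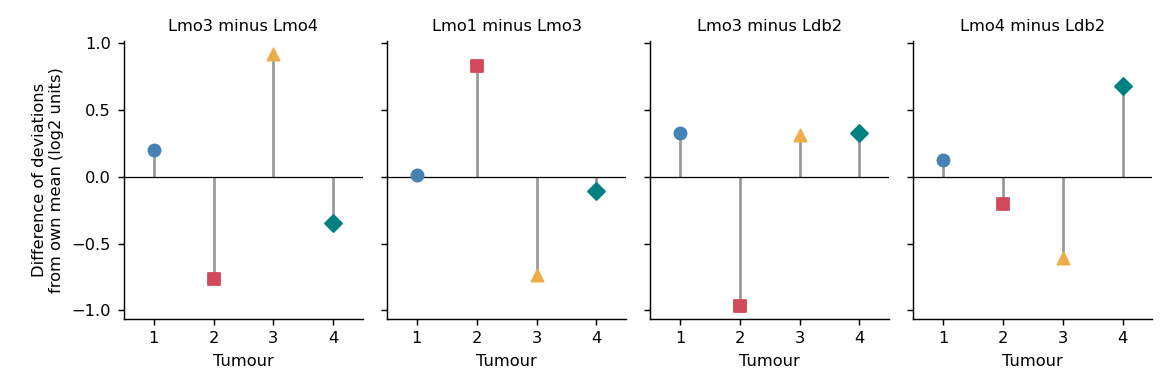
Difference between the deviations of 2 genes from their own 4-tumour means (y axis, log2 units) in tumours 1 to 4 (x axis), for the 4 pairs with the widest range. Lmo3 minus Lmo4 runs from -0.77 in tumour 2 to 0.92 in tumour 3, and Lmo3 minus Ldb2 is set by tumour 2 alone.

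Genes that work with LMO and LDB proteins, genes of the sympathetic programme and other LIM-only proteins were taken from 8 lists. Of their 59 genes, 55 were measured, and 32 of these (58.2%) were detected, where 40.5% of all named genes were. Gata2 and Ssbp2, 2 of the 32, had a range of at least 1, where 4.26% of all detected genes did. The median range of the 32 was 0.38, against 0.41 for all detected genes. The other 4 listed genes were not analysed here.

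**Figure D4:**
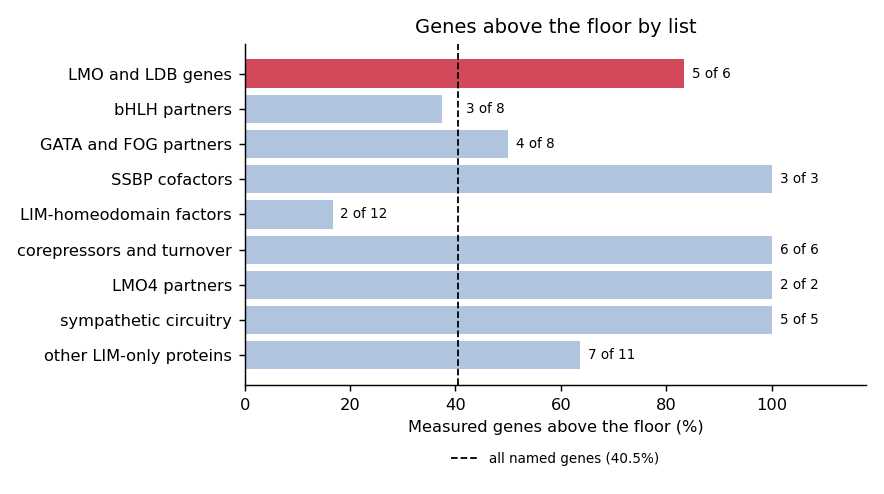
Share of the measured genes of each list whose 4-tumour mean lies above the floor (x axis, percent), with the counts beside the bars; the dashed line is the share of all named genes, 40.5%. LIM-homeodomain factors (2 of 12) and bHLH partners (3 of 8) lie below the line, and every measured SSBP, corepressor and LMO4 partner gene is above the floor.

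Cofactors that hold or remove Ldb1 were detected throughout. All 3 SSBP genes were above the floor: Ssbp3 measured 8.14 ± 0.07, with a range of 0.16 as deposited and 0.31 with centred arrays, and Ssbp4 measured 8.26 ± 0.19 (SD, n = 4). Ssbp2 varied, with 7.98 in tumour 1, 8.32 in tumour 2, 7.23 in tumour 3 and 7.61 in tumour 4. It was highest in tumour 2 and lowest in tumour 3, as Lmo4 was in the values as deposited and opposite to Lmo3. Its range of 1.09 was 0.96 with centred arrays, 0.75 without tumour 2 and 0.70 without tumour 3. Rlim, the ligase that acts on LDB proteins, measured 8.19 ± 0.15 (SD, n = 4).

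All 6 genes of the corepressor and turnover list, Rlim among them, were detected. Kdm1a, a histone demethylase recruited by such complexes, was at 9.11 ± 0.14 (SD, n = 4). The ETO family of corepressors has 3 genes here: Cbfa2t2 ran from 6.10 in tumour 4, just under the floor, to 6.86 in tumour 1, Cbfa2t3 peaked in tumour 3 (6.68 against 6.20 to 6.42), and Runx1t1 ran from 8.32 in tumour 3 to 9.02 in tumour 1.

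Among bHLH partners, the general E proteins were detected and their lineage-restricted mates were not. Of 8 bHLH genes, Tcf3 (7.97 ± 0.14), Tcf4 (10.24 ± 0.16) and Tcf12 (8.54 ± 0.18, SD, n = 4), the E proteins, were above the floor. Nhlh2, the partner of LMO3 in human neuroblastoma, measured 5.76, 5.73, 5.78 and 5.55 in tumours 1 to 4, and Nhlh1 4.25 ± 0.24 (SD, n = 4), both under the floor and likewise named with their values known. With the floor at the receptor median of 4.01, all 8 passed it. Many receptor genes lie above their own median by definition, so passing it does not show expression. The share of all named genes above that median was not counted. The undetected bHLH genes, Nhlh1 and Nhlh2 among them, had means between that median and the usual floor, where signal and background overlap. The E proteins lay above both.

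Of the GATA and FOG genes, 4 of 8 were detected. Gata3, a factor of the sympathetic lineage, measured 8.06, 8.04, 8.00 and 8.10 in tumours 1 to 4, a range of 0.10, or 0.25 with centred arrays. Gata2, its relative in the same lineage, measured 8.77, 8.02, 8.29 and 9.07, highest in tumour 4 and lowest in tumour 2. Its range was 1.05, or 1.17 with centred arrays, and 0.78 without tumour 2 and 0.75 without tumour 4. The GATA cofactors Zfpm1 and Zfpm2 measured 6.74 ± 0.16 and 7.16 ± 0.18 (SD, n = 4).

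LIM-homeodomain factors, which compete with LMO proteins for Ldb1, were mostly under the floor: 2 of 12 were detected. Isl1, a factor of sympathetic neurons, measured 10.44, 10.32, 10.32 and 10.47 in tumours 1 to 4, a range of 0.15, or 0.27 with centred arrays. Lmx1b, at 6.25 ± 0.14 (SD, n = 4), was barely above the floor, and the count was 1 without tumour 1 or with the stricter floor. Among partners of LMO4, Deaf1, a transcription factor, was at 7.95 ± 0.15 and Brca1, the DNA repair protein, at 6.78 ± 0.25 (SD, n = 4). Brca1 ordered the tumours as Lmo1 did, with 7.03 in tumour 2 and 6.52 in tumour 4 at the ends.

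**Figure D5:**
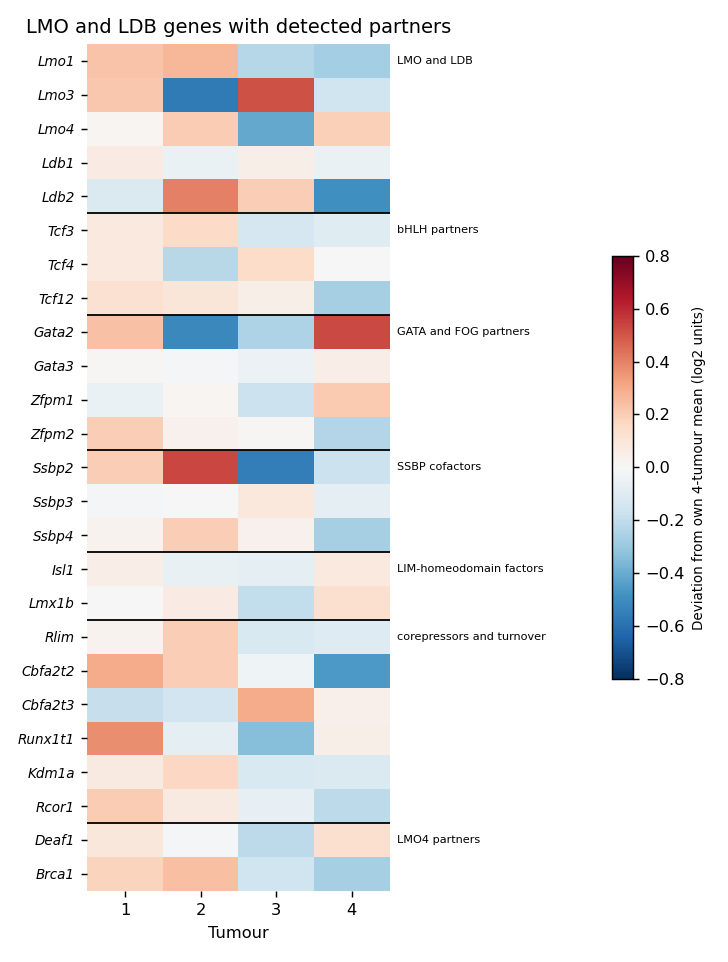
Deviation of each gene from its own 4-tumour mean (colour, log2 units; red higher, blue lower) in tumours 1 to 4 (columns), for the detected LMO and LDB genes and the detected genes of 6 partner lists (rows). Lmo3 and Ssbp2 take opposite colours in tumours 2 and 3, Gata2 is high in tumour 4, and Ldb1, Gata3, Ssbp3 and Isl1 are pale throughout in the values as deposited.

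The sympathetic programme around these factors was detected in all 5 measured genes of its list. Tbx2, a T-box factor of neuroblastoma, was highest in tumour 2 (8.27) and lowest in tumour 3 (7.47), again the extremes of Lmo4 and Ssbp2 as deposited. With centred arrays Lmo4 was highest in tumour 4, while Tbx2 and Ssbp2 stayed highest in tumour 2. Hand2, a bHLH factor of the lineage, measured 9.11 ± 0.18, Insm1, a neuroendocrine zinc finger factor, 7.46 ± 0.18, and Th, tyrosine hydroxylase, 11.88 ± 0.18 (SD, n = 4). Dbh, which makes noradrenaline, ran from 10.28 in tumour 2 to 11.07 in tumour 4. Fibroblast markers, of which 5 of 7 were detected, had mean levels of 7.00, 6.18, 6.44 and 6.04 in tumours 1 to 4. They were thus higher in the tumours where Lmo3 was higher, 1 and 3, but the full order differed. The markers were highest in tumour 1 and lowest in tumour 4, and Lmo3 was highest in tumour 3 and lowest in tumour 2. The part of fibroblast RNA in the Lmo3 values was not tested.

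Other proteins built of LIM domains alone or nearly so belong to the CRIP, CSRP and FHL families, and 7 of 11 were detected. Crip2 ran from 7.38 in tumour 3 to 8.24 in tumour 1, and Csrp2 from 7.37 in tumour 4 to 8.09 in tumour 1. Csrp1, a cytoskeletal LIM protein, measured 8.24 ± 0.08 and Fhl3 6.52 ± 0.11 (SD, n = 4), with ranges of 0.18 and 0.24 as deposited and 0.23 and 0.45 with centred arrays. None of the 7 reached a range of 1.

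The genes most like each member over the 4 tumours were found by the largest difference, in any tumour, between the deviations of both genes from their own means. For Lmo3 these were Snord17 (0.09), Rnu3a (0.09) and Snora74a (0.12), all small nuclear or nucleolar RNAs. Of the 9 genes within 0.15 of Lmo3, 5 carried symbols of that class, as did 64 (0.712%) of all 8988 genes compared; the class was picked after the nearest genes were seen, so the count is a description. Snord17 measured 8.58, 7.95, 8.92 and 8.22 in tumours 1 to 4.

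For Ldb2 the nearest were Ccnyl1, a cyclin-like gene (0.08), Tm4sf4, a tetraspanin-like membrane protein (0.09), and Irs1, an insulin receptor substrate (0.10), and 10 genes lay within 0.15. Irs1 measured 7.57, 7.92, 7.71 and 7.22, highest in tumour 2 and lowest in tumour 4. For Lmo4 they were Ube2q1, Vps72 and Dixdc1 (0.03 to 0.04), with 98 genes within 0.15. For Lmo1 they were Alms1, Cptp and Cct8 (0.01 to 0.02), and as many as 1181 of 8988 genes lay within 0.15, so its pattern is shared widely. Over 4 samples such likeness is a description of these arrays.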

How the data were processed

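Total RNA of 4 tumours was hybridised to 1-colour Affymetrix arrays, 1 per tumour, per the labels. The deposited table holds log2 values that the authors made with RMA and Partek, per the submitters' processing notes; the sources used here state neither versions nor settings nor the genome build of the probe design, and the log base was inferred from the values (2.47 to 13.6). Array medians were 5.15 to 5.29, and arrays of any pair were equal in at most 0.22% of 41345 probe sets. The number of arrays, 4, limits the precision.

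Of the probe sets, 23521 had 1 gene in the platform annotation, 1814 several and 16010 were not listed. Entrez identifiers gave current symbols from the RefSeq table of GRCm38.p6 (23328 matched), and the probe set with the highest mean stood for a gene. Means, SDs, ranges and Dixon ratios were computed with pandas 2.3.3. The members, lists and rules were chosen with earlier results of these data known. Named genes were the members, up to 3 detected genes with the widest and 2 with the narrowest range per list, and the 3 genes most like each detected member with a range of at least 0.5. Alternatives were leaving out each tumour, quantile normalization, centring on detected genes, the mean of probe sets, other floors and a 1.5-fold range.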

Additional observations from a re-analysis of the deposited data

Results flagged for a closer look

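Of the 47 genes named by rule, Crip1, a small LIM protein, had 1 tumour far from the others in the values as deposited. Tumour 1 measured 9.13 and the others 8.57 to 8.66. The gap took 0.832 of the range, past Dixon's 95% limit for 4 samples. Chance alone sends about 5 in 100 groups of 4 past this limit. The result depends on the scaling, and tumour 1 was the array with the largest offset (0.12). With centred arrays Crip1 deviated by 0.25 in tumour 1 and by -0.13, -0.10 and -0.02 in tumours 2 to 4. The range was then 0.38, and the gap of tumour 1 to tumour 4 took a share of it under the limit.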

How the results depend on the processing

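The count of detected members was 5 under each alternative except the floor at the receptor median, where it was 6. The number of members with a 2-fold range was between 0 and 1 when each tumour was left out, and 3 (Lmo3, Lmo4 and Ldb2) with a 1.5-fold limit. The share of all detected genes past the 1.5-fold limit was not counted. Lmo4, the narrowest of the 3, stood at percentile 79.1 of detected genes, so such a range is not rare. The range of Ldb1 was 0.21 after a further quantile normalization and 0.23 with arrays centred on detected genes, and that of Lmo2 was 0.28 with centred arrays. Centring subtracts from each array the median deviation of detected genes, which ran from -0.09 to 0.12, and Lmo2 was not a detected gene. What moved Ldb1 under quantile normalization was not tested. The range of Lmo4 as deposited lay between 0.19 and 0.61 when each tumour was left out, the lowest without tumour 3. With the floor at the receptor median, 53 of the 55 measured list genes passed it. The share of all named genes above that floor was not counted. Taking the mean of probe sets changed no member, since each has 1. Signal over background limits what can be said of Lmo2, Nhlh2 and Lmx1b.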
